A study of Arabidopsis thaliana with 24 samples.

Results

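The response of brl3-2 root tips to zeocin was set against that of wild-type (WT) root tips, gene by gene, in Arabidopsis thaliana. The quantity described is the change from mock to zeocin in brl3-2 minus the change from mock to zeocin in WT, on the log2 scale, and it is called the difference of the responses. It draws on all 12 libraries of the count table, 3 in each of 4 groups, which stand for 24 described samples because each library was sequenced in 2 runs. Of 33296 named genes in the table, 19437 had enough reads to be tested.

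WT was Col-0. The mutant was brl3-2, a single T-DNA insertion line in the BRL3 gene, so genotype here means 1 line against Col-0. Seedlings of both genotypes were 6 days old and spent 2 h in liquid medium that held either DMSO (mock) or zeocin, after which RNA was taken from the tips of the primary roots. The labels give the zeocin dose as 10 µM in one place and 2 µM in another, so no dose is attached to the values. The labels call the replicates biological but do not say whether seedlings were pooled, and the p-values measure the spread between these libraries.

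BRL3 is a receptor kinase of the BRI1 family that binds brassinosteroids, the steroid hormones of plants, and in the root it is known mainly from vascular tissue and the stem cell niche. Zeocin belongs to the bleomycin antibiotics and breaks both strands of DNA. In plants the breaks are sensed by the kinase ATM, which activates SOG1, a transcription factor that turns on repair genes and inhibitors of the cell cycle. Whole root tips were measured, so fewer cells of a type and less RNA per cell cannot be told apart.

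Replicate 3 of WT mock held 70212858 counts and replicate 3 of WT zeocin 73481046, and both are called the deep WT libraries below. The other 10 libraries held 32668516 to 38276389 counts. In a principal component analysis the first component held 50.4% of the variance and separated zeocin from mock libraries, and the deep WT libraries lay lowest on the second component. The brl3-2 mock library numbered 2 carried 255 CPM (counts relative to the library total) summed over 9 photosynthesis genes, against 24.8 to 53.4 CPM in the other 11. Root tip markers were present in every library, with the 12 stem cell niche genes summing to 153 to 192 CPM and the 4 root cap genes to 18.4 to 29.2 CPM.

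Zeocin changed largely overlapping sets of genes in the 2 genotypes, and no gene passed the test for a difference between the responses. A gene was called at a Benjamini-Hochberg adjusted p under 0.05 in edgeR's quasi-likelihood test over all 19437 genes. In WT 792 genes rose (4.07%) and 175 fell (0.9%), and in brl3-2 840 rose (4.32%) and 205 fell (1.05%). For the difference of the responses, 0 genes were called higher and 0 lower in brl3-2 (0% in each direction). At an unadjusted p under 0.05 the edgeR test gave 194 genes (0.998%), of which 95 (0.489%) were higher and 99 (0.509%) lower in brl3-2. Exact p-values would put 5% of genes under 0.05 if no gene differed, so the test was cautious here. The 0 calls therefore do not show that the responses are equal. DESeq2 and limma-voom likewise called 0, with 176 and 195 genes at an unadjusted p under 0.05. The lowest unadjusted p of any gene was 0.000425 (ESM1, a gene of glucosinolate breakdown at a mean of 0.241 CPM), and the lowest adjusted p was 1.00. Without WT mock replicate 3 the unadjusted count was 884, and with both deep WT libraries left out it was 540, still with 0 called.

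Of the 967 genes called in WT and the 1045 called in brl3-2, 815 were called in both, which is 84.3% of the WT list and 78.0% of the brl3-2 list. None of the 815 had opposite signs. Among rises, 694 were shared (87.6% of WT's and 82.6% of the mutant's), and among falls 121 were shared (69.1% and 59.0%). Among genes whose mean response was 2-fold or more, 427 were shared, 94.1% of WT's and 94.3% of the mutant's. The mean is taken over both genotypes, so this grouping itself favours shared calls. Of the genes called in a single genotype, 27 of the 152 called in WT alone and 26 of the 230 called in brl3-2 alone had a mean response of 2-fold or more. The 152 called in WT alone had a median response size of 0.55 in WT and 0.38 in brl3-2, 150 of them had the same sign in brl3-2, and 136 had an unadjusted p under 0.05 there. The 230 called in brl3-2 alone had a median of 0.54 in brl3-2 and 0.33 in WT, 223 had the same sign in WT, and 183 had an unadjusted p under 0.05 there.

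**Figure D1:**
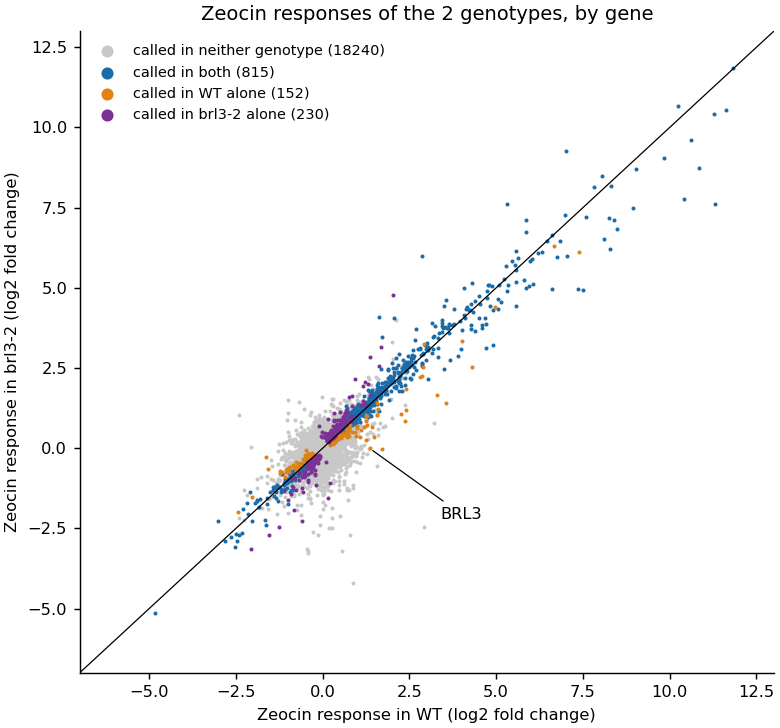
Each point is 1 of 19437 genes, with its log2 change from mock to zeocin in WT on the x axis and in brl3-2 on the y axis. The line marks equal responses, colours mark genes called in both genotypes (815), in WT alone (152), in brl3-2 alone (230) or in neither (18240), and BRL3 lies off the line at 1.36 in WT and −0.01 in brl3-2.

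BRL3 itself (AT3G13380, chromosome 3, bases 4346330 to 4350939 in TAIR10.1) had the lowest unadjusted p among genes with at least 1 CPM in a group mean. It rose in WT, while the insertion line held a low level in both treatments. In WT it stood at 9.55, 10.4 and 12.9 CPM in mock and at 21.5, 31.7 and 31.2 CPM under zeocin. In brl3-2 it stood at 0.698, 1.26 and 1.06 CPM in mock and at 1.01, 1.06 and 0.935 CPM under zeocin. The WT zeocin libraries all lay above the WT mock libraries, and the brl3-2 groups overlapped. Of all genes tested, 9.86% had all zeocin libraries above mock in WT and 13% in brl3-2. The response was 1.36 ± 0.18 (log2 ± SE) in WT and −0.01 ± 0.26 in brl3-2. Their difference was −1.37 ± 0.32, with a 95% interval of −2.06 to −0.67, an unadjusted p of 0.0012 and an edgeR adjusted p of 1.00. Leaving out any 1 library moved it no lower than −1.57, and it stayed negative in all 12 fits. The other 11 brassinosteroid receptor and signalling genes tested had 0 calls and 0 unadjusted p-values under 0.05. BRI1, the main brassinosteroid receptor, had a difference of −0.02 ± 0.09. The related receptor kinases BRL1 and BRL2 were at −0.16 ± 0.27 and −0.15 ± 0.14, and the transcription factor BES1 at 0.12 ± 0.14.

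Over all genes tested the 2 responses had a Pearson correlation of 0.893 and a Spearman correlation of 0.608 across genes, which are not independent replicates; the responses share no library but share the fit and its estimate of spread. The sign was the same for 13885 genes (71.4%). The median absolute difference of the responses was 0.09 on the log2 scale, below its median SE of 0.18, and it was 0.35 or less in 9 of 10 genes. For 15548 genes (80.0%) the 95% interval of the difference lay wholly within a 2-fold change in either direction, and for 11433 (58.8%) wholly within 1.5-fold. A gene outside these limits is not shown to differ, since its interval may only be wide.

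The match between the responses varied with expression level, taken as the mean CPM over the 12 libraries. The correlation across genes was 0.817 for the 2009 genes under 1 CPM, 0.894 for 2688 genes at 1 to 4 CPM, 0.934 for 4654 at 4 to 16 CPM, 0.941 for 6384 at 16 to 64 CPM and 0.973 for 3702 at 64 CPM and over. The median absolute difference fell over the same bins from 0.35 to 0.18, 0.10, 0.06 and 0.06, and the median SE fell beside it from 0.58 to 0.33, 0.20, 0.13 and 0.12. In every bin the typical difference was thus smaller than its own standard error, which small real differences would also allow. The rank correlation and the shared sign did not follow that order throughout. From 16 to 64 CPM to 64 CPM and over, the Spearman correlation went from 0.703 to 0.593 and the share of genes with the same sign from 74.5% to 68.0%. Of 238 genes whose fitted difference was 2-fold or more, 182 lay under 1 CPM.

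The intervals were narrower above 4 CPM than below it. The share of genes whose interval lay within 2-fold was 5.23% under 1 CPM, 56.8% at 1 to 4, 90.4% at 4 to 16, 96.5% at 16 to 64 and 95.8% at 64 CPM and over. Under 1 CPM, then, most intervals were too wide to exclude a 2-fold difference, while above 4 CPM most left no room for one. The width of an interval is not the reach of the adjusted test. BRL3, at a mean of 10.3 CPM and with a difference of −1.37, was not called. The share at an unadjusted p under 0.05 was 2.14%, 1.67%, 1.07%, 0.595% and 0.486% in the 5 bins from low to high. Of the genes called in either genotype, 60.7% were called in both under 1 CPM and 79.9% at 64 CPM and over.

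**Figure D2:**
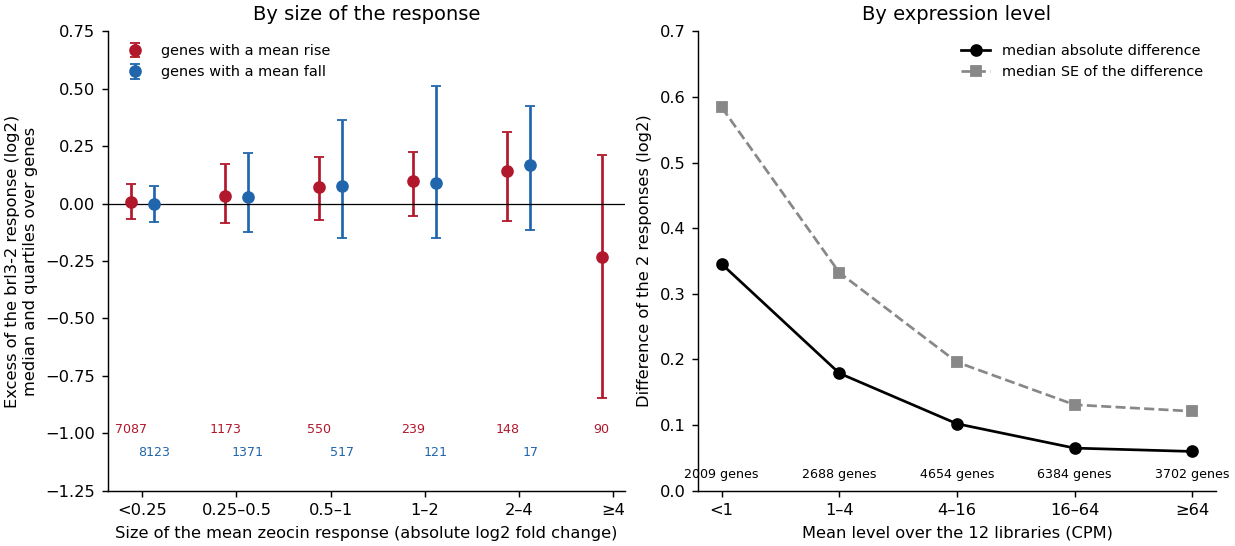
Left, the median (point) and quartiles (bars) over genes of the excess of the brl3-2 response over the WT response, in the direction of the mean response, by size of the mean response; rises in red, falls in blue, numbers of genes below. Right, the median absolute difference of the responses and its median SE by mean CPM; the difference falls from 0.35 to 0.06 and stays under the SE.

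To set the match between genotypes beside the match between replicates, responses were also built from 1 zeocin and 1 mock library at a time and compared in pairs that share no library. Within WT the 18 pairs had a median correlation across genes of 0.606 (0.216 to 0.725), within brl3-2 the 18 pairs had 0.628 (0.536 to 0.769), and between genotypes the 81 pairs had 0.682 (0.365 to 0.809). In their medians, the pairs between genotypes were thus no less alike than the pairs within a genotype. A pair within a genotype draws on more libraries of that genotype, so a deviating library enters more of these pairs. The medians therefore do not show that the genotypes match as well as replicates do. The median between genotypes was also the highest of the 3 under 1 CPM (0.438 within WT, 0.434 within brl3-2 and 0.484 between genotypes) and at 64 CPM and over (0.802, 0.851 and 0.870). For the 616 genes with a mean response of 2-fold or more the medians were 0.896, 0.901 and 0.909, and the lowest pair of all stood at 0.853. These genes were chosen by their response in the same libraries and join rises with falls. Their high correlations therefore follow in part from the choice.

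**Figure D3:**
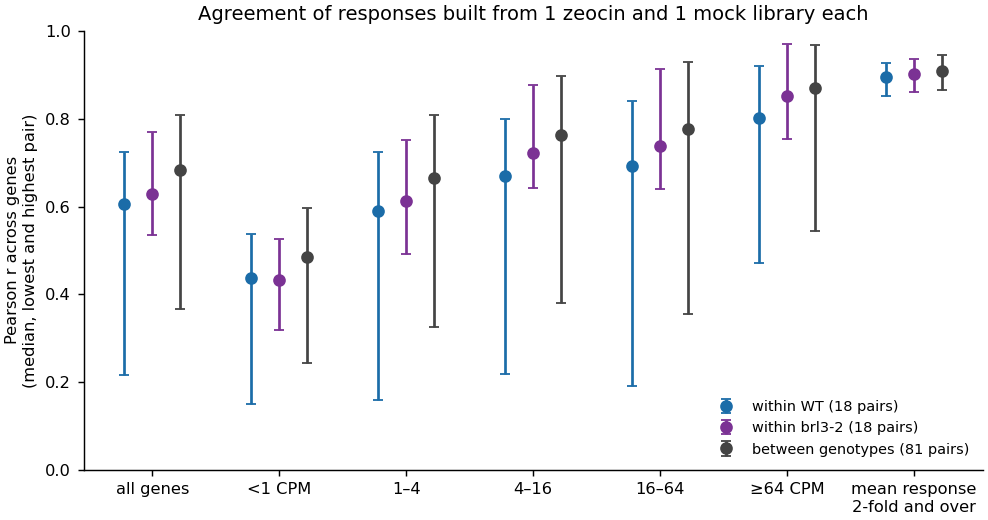
Pearson correlation across genes between responses built from 1 zeocin and 1 mock library each, for pairs that share no library, by group of genes on the x axis. Points are medians and bars run from the lowest to the highest pair, and the pairs between genotypes lie at or above those within a genotype in their medians.

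By size of the response, genes were grouped on the mean of the 2 responses, which favours neither genotype. Where the mean rise was under 0.25 (7087 genes), 63.7% had the same sign in both genotypes, and the median response was 0.07 in each. The same sign was found for 94.4% of the 1173 genes at 0.25 to 0.5, for 98.5% of the 550 genes at 0.5 to 1, and for all 477 genes with a mean rise of 1 or more. Falls gave 65.7%, 93.7%, 95.4% and 95.9% in the bins up to 2, and all 17 genes at 2 to 4. A large mean makes opposite signs less likely by its construction, so these shares describe the bins.

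Among genes that rose, the brl3-2 response tended to be slightly larger. The median excess over WT was 0.03 at 0.25 to 0.5, 0.07 at 0.5 to 1, 0.10 at 1 to 2 and 0.14 at 2 to 4, with the brl3-2 response the larger for 666 of 1173, 359 of 550, 171 of 239 and 104 of 148 genes. The order turned in the 90 genes with a mean rise of 4 or more, where the median excess was −0.23 and 33 were larger in brl3-2. Of these 90 genes, 40 had under 4 counts in at least 1 group, so that their fitted responses rest on the prior count of the fit. In the other 50 the median excess was −0.11, and 18 were larger in brl3-2. Genes that fell had excesses of 0.03, 0.08, 0.09 and 0.17 in the bins from 0.25 to 4, the last of 17 genes.

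The pattern among rises was clearest in well expressed genes, where the correlation was also highest. Of 71 genes at 64 CPM and over with a mean rise of 2-fold or more, 60 had the larger response in brl3-2, with a median excess of 0.13 and a correlation of 0.995. Of 85 such genes at 16 to 64 CPM, 67 had, with a median excess of 0.10 and a correlation of 0.990. Over both levels that is 127 of 156 genes (81.4%), all called in both genotypes, at a median excess of 0.11. The median difference of the responses over all genes tested was 0.004. At lower levels the pattern among rises of 2-fold or more was less uniform or turned. The brl3-2 response was larger for 65 of 97 genes at 4 to 16 CPM (median excess 0.09). It was larger for 35 of 77 at 1 to 4 CPM (−0.08) and 81 of 147 under 1 CPM (0.10). At 64 CPM and over, 12 genes had a mean rise of 4 or more. Of these, 6 were larger in brl3-2, at a median excess of 0.02. The genes are not independent, and in none of the 156 was the difference itself called; 7 had an unadjusted p under 0.05, all with the larger response in brl3-2.

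The excess was smaller than the spread of the brl3-2 zeocin libraries, though larger than that of the WT zeocin libraries. Relative to the mock mean of its genotype, the median rise of the 156 genes was 1.79, 1.85 and 1.80 in the WT zeocin libraries and 2.02, 2.00 and 1.77 in the brl3-2 zeocin libraries. The genotypes overlapped, because brl3-2 zeocin replicate 3 lay below all 3 WT values. Leaving out each library in turn gave 103 (without brl3-2 zeocin replicate 2) to 139 (without brl3-2 zeocin replicate 3) genes larger in brl3-2, with median excesses of 0.06 to 0.20, and leaving out both deep WT libraries gave 100. For the 477 rises of 2-fold or more at any level the median excess was 0.09, with 308 larger in brl3-2, and it became −0.01 without both deep WT libraries. For the 139 falls of 2-fold or more it was 0.10, with 87 larger in brl3-2, and it became −0.12 without both deep WT libraries and −0.06 without WT zeocin replicate 3 alone.

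Grouping on a single genotype's response changed these medians, since a gene then enters a large bin partly through the error of that response. On the WT response alone, the excess ran from −0.06 to 0.11 over rises between 0.25 and 4 and from −0.18 to −0.10 over falls. On the brl3-2 response alone, it ran from 0.12 to 0.16 over rises and from 0.13 to 1.17 over falls. The falls therefore took the sign of the grouping, and among rises the bins from 1 to 4 stayed positive under all 3 groupings.

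DNA damage response genes rose in both genotypes. Of 27 genes in the list 26 were tested, 22 rose in WT and 22 in brl3-2, and 0 were called for the difference. The median difference was 0.10, with single genes from −0.42 to 0.39. Of the 26, 18 had the larger response in brl3-2, beside 308 of all 477 rises of 2-fold or more. For 21 the 95% interval lay within 2-fold, beside 80.0% of all genes tested. The median over the list moved with the libraries numbered 3: relative to the mock mean it was 3.75, 3.75 and 2.95 in the WT zeocin libraries and 3.89, 3.92 and 3.3 in the brl3-2 zeocin libraries. Without WT zeocin replicate 3 the median difference was −0.005 and 13 of 26 were larger in brl3-2; without WT mock replicate 3 it was 0.24 and 22 of 26 were. With the deep WT libraries thinned to fewer counts the median difference was 0.13, and 20 of 26 were larger in brl3-2. With replicate number as a block in the fit it was 0.11, and 18 of 26 were. Why the libraries numbered 3 differed from the others was not tested.

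RAD17, a loader of the checkpoint clamp at damaged DNA, was measured with the narrowest interval among genes with a mean rise of 2 or more on the log2 scale. It stood at 17.5, 17.2 and 16.3 CPM in WT mock, 136, 134 and 127 in WT zeocin, 17.7, 16.2 and 16.5 in brl3-2 mock and 165, 156 and 147 in brl3-2 zeocin. The mock groups overlapped, and the brl3-2 zeocin libraries all lay above those of WT. How many of all genes separate the genotypes in this way was not counted, here or for the genes below. Its responses of 2.96 ± 0.06 and 3.21 ± 0.06 differed by 0.25 ± 0.09 (95% interval 0.05 to 0.45, unadjusted p = 0.017, edgeR adjusted p = 1.00).

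XRI1, needed for meiosis and induced by X-rays, stood at 29.9, 26.6 and 23.4 CPM in WT mock, 766, 755 and 701 in WT zeocin, 26.7, 28.1 and 25.5 in brl3-2 mock and 937, 930 and 873 in brl3-2 zeocin. Here too the zeocin groups did not overlap and the mock groups did. The difference of its responses was 0.29 ± 0.13, with an unadjusted p of 0.039, which became up to 0.11 when 1 library was left out.

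Other repair genes had differences within 0.25 of 0. RPA1E and RPA1A, large subunits of the protein that coats single-stranded DNA, had differences of 0.25 ± 0.12 and 0.13 ± 0.08. COM1, which acts in end resection, was at 0.24 ± 0.18, and BRCA1 at 0.17 ± 0.26. PARP1 and PARP2, enzymes that add ADP-ribose chains at breaks, were at 0.13 ± 0.21 and −0.01 ± 0.17. AGO2, an Argonaute protein, was at 0.03 ± 0.13. RNR1 and TSO2, the large and small subunits of ribonucleotide reductase, were at 0.22 ± 0.20 and −0.21 ± 0.20, and RNR1 came to 0.04 without WT zeocin replicate 3.

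Cell cycle genes and transcription factors of the list ranged widely in precision. SMR4, a cell cycle inhibitor of the same family as SMR7, had responses of 5.44 ± 0.15 and 5.83 ± 0.16, a difference of 0.39 ± 0.22. CYCB1;1, a mitotic cyclin that is induced by DNA damage in plants, differed by 0.16 ± 0.19, and WEE1, a kinase that holds back the cell cycle, by 0.08 ± 0.16. The transcription factors NAC044 and NAC103, which act downstream of SOG1, differed by 0.37 ± 0.66 and −0.42 ± 0.85, intervals too wide to place within 2-fold. SOG1 itself did not pass the test in either genotype (0.04 ± 0.06 in WT and −0.03 ± 0.06 in brl3-2), and the difference was −0.07 ± 0.09.

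Most of the largest rises came from genes almost silent in mock, and the intervals of those differences were wide. SMR7, an inhibitor of cyclin-dependent kinases, stood at 0.287, 0.330 and 0.302 CPM in WT mock, 153, 170 and 157 in WT zeocin, 0.349, 0.429 and 0.529 in brl3-2 mock and 201, 206 and 144 in brl3-2 zeocin. The mock libraries of brl3-2 all lay above those of WT, while the zeocin groups overlapped. The fitted responses were 9.02 ± 0.23 and 8.71 ± 0.23, a difference of −0.30 ± 0.33, from 42 and 44 mock counts over 3 libraries.

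AT4G09215, for which the annotation gives no product, had the largest mean rise of all genes that met the naming rule. It held 5 counts over the WT mock libraries and 9 over the brl3-2 mock libraries, and reached 126, 132 and 113 CPM in WT zeocin and 145, 158 and 112 CPM in brl3-2 zeocin. The zeocin levels overlapped, yet the fitted responses were 11.61 ± 0.58 and 10.56 ± 0.44, a difference of −1.05 ± 0.73 with an interval of −2.65 to 0.54. AT5G07165, an uncharacterised protein with 6 and 10 mock counts, likewise gave −0.87 ± 0.80. Of the 10 genes with the largest mean rise, 9 had an interval that reached beyond 2-fold in at least 1 direction, and TK1a did not.

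TK1a, a thymidine kinase that supplies nucleotides, rose from a mock level that could be measured. It stood at 11.6, 9.30 and 12.7 CPM in WT mock, 1086, 1122 and 1081 in WT zeocin, 10.6, 11.8 and 11.9 in brl3-2 mock and 1324, 1289 and 858 in brl3-2 zeocin. The brl3-2 zeocin libraries lay on both sides of the WT values, with replicate 3 the lowest of all 6. The responses were 6.61 ± 0.16 and 6.66 ± 0.16, and the difference was 0.05 ± 0.22. AT2G45460, a protein with an FHA domain, gave 4.07 ± 0.07 and 4.15 ± 0.07, with an interval of the difference from −0.15 to 0.31.

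Falls were smaller than the largest rises, and less exact than rises of the same size. The median SE of the difference was 0.60 for falls and 0.30 for rises at a mean response of 1 to 2. At 2 to 4 it was 0.61 and 0.38, while rises of 4 and over had 1.05. UMAMIT14, an amino acid exporter, had the largest mean fall. It stood at 7.89, 6.03 and 5.87 CPM in WT mock, 0.306, 0.178 and 0.216 in WT zeocin, 4.33, 5.67 and 3.36 in brl3-2 mock and 0.122, 0.0606 and 0.182 in brl3-2 zeocin. In both genotypes the zeocin libraries lay below the mock libraries, as they did for 6.35% of genes tested in WT and 10.6% in brl3-2. The responses were −4.82 ± 0.32 in WT and −5.13 ± 0.42 in brl3-2. Its paralogue UMAMIT17 fell in both genotypes, with a difference of −0.17 ± 0.50. OCT1, a carnitine transporter, had a difference of −0.29 ± 0.69, and AT4G00910, a malate transporter family gene, of −0.08 ± 0.34. For AT4G00910 43.1% of the exon bases overlap exons on the opposite strand, and whether counting used strand is not given.

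**Figure D4:**
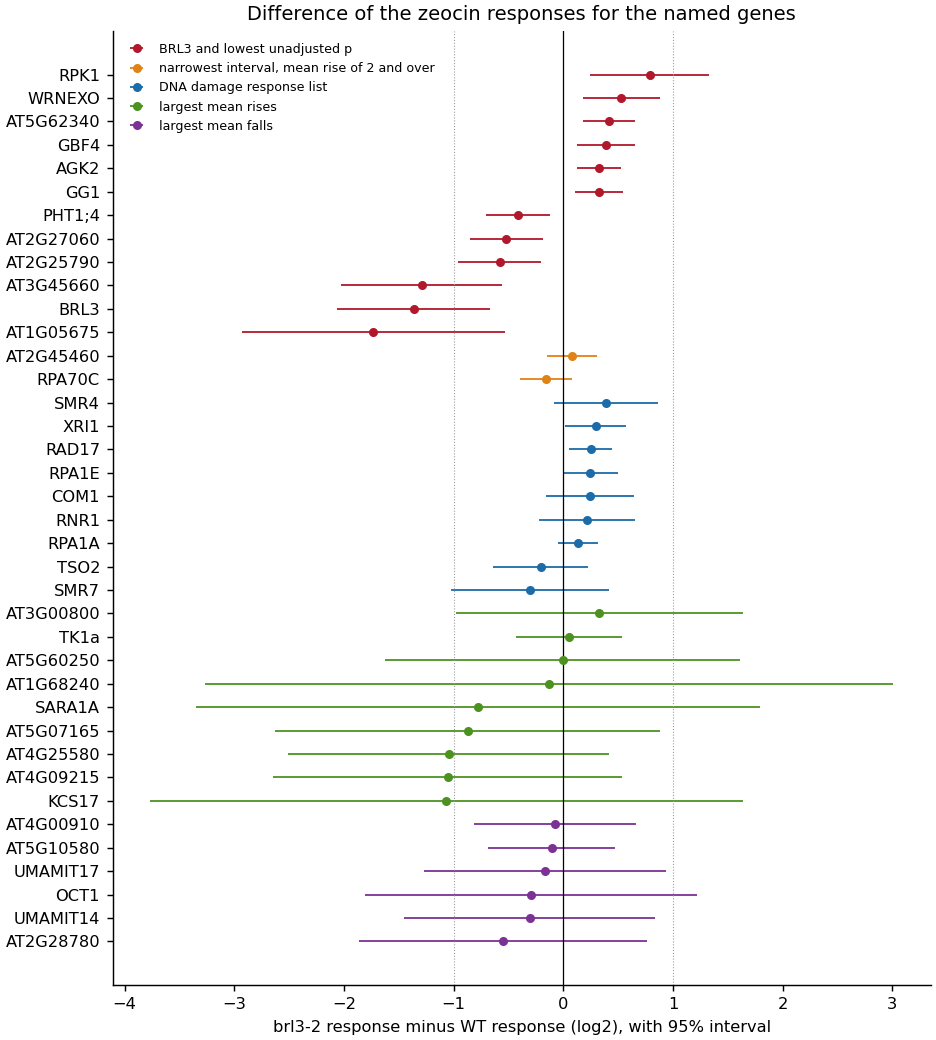
Difference of the responses, brl3-2 minus WT on the log2 scale, with its 95% interval (bars) for the named genes, coloured by why each was named; dotted lines mark 2-fold. RAD17 has the narrowest interval among strong rises (0.05 to 0.45). The widest is that of AT1G68240 (−3.27 to 3.01), 1 of the largest rises, while TK1a, also among them, runs from −0.43 to 0.54.

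Since 0 genes were called, the genes with the lowest unadjusted p and at least 1 CPM in the highest group were named as not passing, 6 in each direction. Those with the higher response in brl3-2 had differences of 0.32 to 0.79. AT5G62340, a pectin methylesterase inhibitor family gene, stood at 46.3, 53.9 and 44.6 CPM in WT mock, 56.4, 63.5 and 56.5 in WT zeocin, 41.5, 44.2 and 43.6 in brl3-2 mock and 70.6, 69.5 and 69.7 in brl3-2 zeocin. The brl3-2 libraries lay below WT in mock and above WT under zeocin. The responses of 0.28 ± 0.08 and 0.70 ± 0.08 differed by 0.41 ± 0.11 (unadjusted p = 0.0025, edgeR adjusted p = 1.00).

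AGK2, a guanylate kinase of nucleotide metabolism (AT3G57550), was among the genes that rose strongly in both. It stood at 90.2, 89.6 and 97.3 CPM in WT mock, 341, 330 and 347 in WT zeocin, 94.6, 87.3 and 97.6 in brl3-2 mock and 429, 410 and 446 in brl3-2 zeocin. The mock groups overlapped and the zeocin groups did not. Its responses of 1.88 ± 0.06 and 2.20 ± 0.06 differed by 0.32 ± 0.09 (95% interval 0.12 to 0.53, unadjusted p = 0.0045, edgeR adjusted p = 1.00), and the difference stayed between 0.29 and 0.36 when any 1 library was left out. The remaining 4 were WRNEXO, a Werner-type exonuclease (0.53 ± 0.16), GBF4, a bZIP transcription factor (0.39 ± 0.12), GG1, a G protein gamma subunit (0.32 ± 0.10), and RPK1, a receptor-like kinase (0.79 ± 0.25). Exons on the opposite strand cover 83.4% of RPK1, 34.1% of GBF4 and 29.4% of WRNEXO, so reads of their antisense partners may be part of these values.

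Of those with the lower response in brl3-2, BRL3 is described above. AT3G45660, a major facilitator family transporter, stood at 1.32, 1.07 and 1.67 CPM in WT mock, 1.20, 1.66 and 1.90 in WT zeocin, 2.12, 1.83 and 2.08 in brl3-2 mock and 1.04, 1.09 and 0.753 in brl3-2 zeocin. The WT groups overlapped, and the brl3-2 zeocin libraries all lay below the brl3-2 mock libraries. The responses were 0.22 ± 0.23 and −1.07 ± 0.24, a difference of −1.29 ± 0.34 (unadjusted p = 0.0024, edgeR adjusted p = 1.00). AT1G05675, a glycosyltransferase, went from 0.516, 0.523 and 0.573 to 2.24, 2.07 and 1.07 CPM in WT, and from 1.08, 0.544 and 0.622 to 0.886, 0.909 and 0.415 CPM in brl3-2, a difference of −1.73 ± 0.55. The leucine-rich repeat receptor kinases AT2G27060 and AT2G25790 had differences of −0.52 ± 0.15 and −0.58 ± 0.17, and PHT1;4, a phosphate transporter of roots, −0.41 ± 0.13.

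In 9 genes a call in 1 genotype came with the opposite sign in the other, and the uncalled responses lay between −0.09 and 0.22. BRL3, AT1G05675, RPK1, WRNEXO, AT2G27060 and AT3G45660 are given above. The other 3 were AT1G80060 (−0.01 in WT and 0.35 in brl3-2), AT5G00470 (0.14 and −1.54) and the Mediator subunit MED10A (−0.03 and 0.39), named after their values were seen. None was called for the difference, with unadjusted p-values of 0.0012 to 0.015 over the 9 genes.

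**Figure D5:**
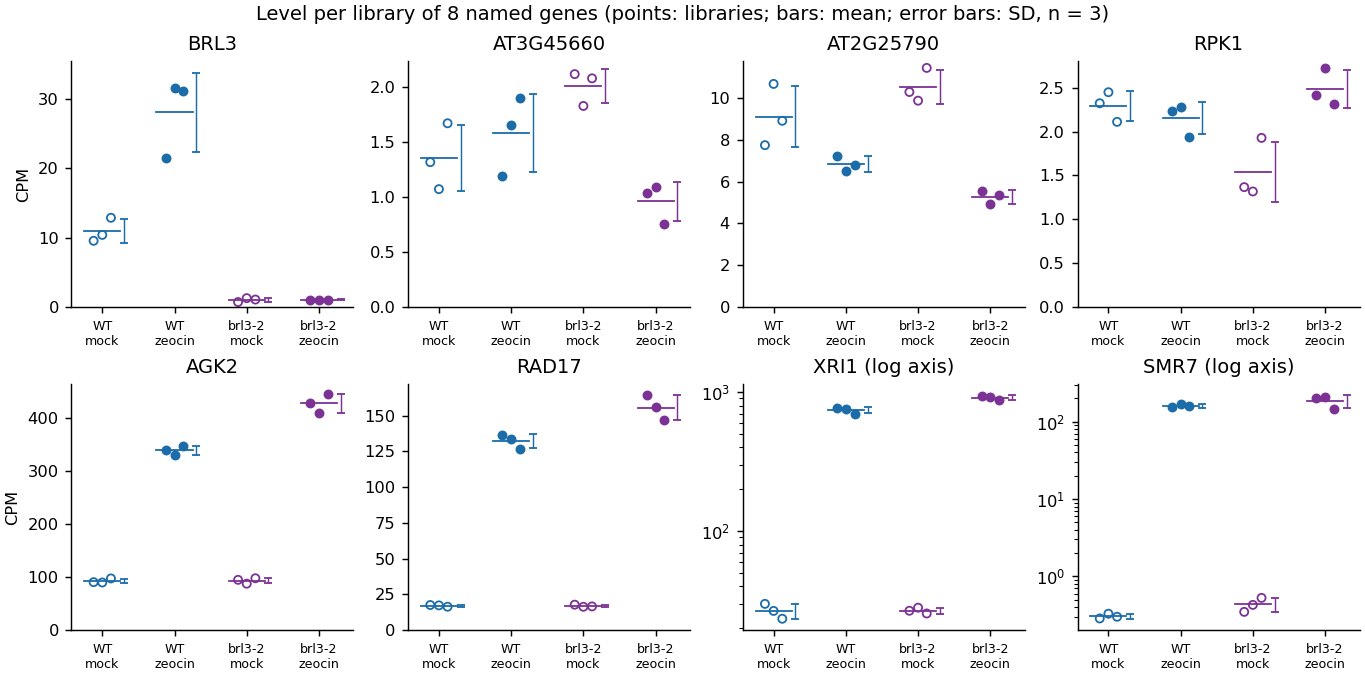
Level in CPM of 8 named genes in each library by group; points are libraries, bars the mean and error bars the SD (n = 3), with log axes for XRI1 and SMR7. BRL3 rises in WT alone, AGK2, RAD17 and XRI1 have overlapping mock groups and separate zeocin groups, and for SMR7 the zeocin groups overlap.

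Among the other lists, 0 genes were called for the difference and few reached an unadjusted p under 0.05. The 14 genes of S phase and replication had a median difference of 0.005 and the 18 of the G2/M cell cycle −0.05, each with every interval within 2-fold. The 11 genes of damage sensing and end joining were at 0.01, also all within 2-fold. In the phloem list SEOR1, a sieve element protein, rose in both genotypes, by 1.62 ± 0.17 and 1.17 ± 0.17, with a difference of −0.45 ± 0.23 (unadjusted p = 0.080). CALS7, a callose synthase of the sieve pores, rose by 0.51 and 0.36, with a difference of −0.16 ± 0.12. Over the 9 phloem genes 4 differences were positive, up to 0.15, and the median was −0.07.

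Growth and identity genes were less precise. WOX5, the quiescent centre regulator, fell in brl3-2 (−1.36 ± 0.36, edgeR adjusted p = 0.048) and did not pass in WT (−0.57 ± 0.32), and the difference of −0.79 ± 0.48 had an unadjusted p of 0.12. Its mean level was 0.58 CPM, with 31 counts over the brl3-2 zeocin libraries. Over the 10 stem cell niche genes tested, 2 differences were positive and the median was −0.09. The root hair genes COBL9, RSL4 and LRX1 were at −0.47 ± 0.23, −0.42 ± 0.30 and −0.61 ± 0.44. WER, a regulator of cell fate in the epidermis, was at 0.31 ± 0.32. Over the 8 root hair and epidermis genes 3 differences were positive and the median was −0.15, beside 0.004 over all genes tested. ARR5, an early cytokinin response gene, was at 0.66 ± 0.27 with an unadjusted p of 0.034, the only 1 of 4 tested in its list. The 9 lists not described, from heat shock to root cap, had median differences of −0.10 to 0.10, with 0 genes called and 0 at an unadjusted p under 0.05.

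The photosynthesis list moved with a single library. Its 6 tested genes had a median difference of −1.77, all negative, with LHCB1.1, a light-harvesting protein, at −5.08 ± 2.29 and an unadjusted p of 0.044. Without brl3-2 mock replicate 2, the library with the high sum, the median was 0.56.

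A sequence feature that the comparison did not use was counted by size of the response. The motif bound by SOG1 is CTT, then any 7 bases, then AAG, which reads the same on both strands, and it was looked for from 250 bases before to 50 bases after the start of each gene in TAIR10.1. It was found in 11.5% of all annotated genes and in 2161 of the 19328 tested genes with such a window (11.2%). Among rises the share was 11.1% under 0.25, 14.4% at 0.25 to 0.5, 16.8% at 0.5 to 1, 16.7% at 1 to 2, 29.7% at 2 to 4 and 35.6% (32 of 90 genes) at 4 and over. Among falls it was 10.0% under 0.25, 10.0% at 0.25 to 0.5, 7.56% at 0.5 to 1 and 12.5% (15 of 120 genes) at 1 to 2.

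The following windows show the motif in capitals within the 30 bases on either side, in the direction of transcription, for AGK2 and for strong rises of different precision. They are given from RefSeq's TAIR10.1 at chr3:21306510-21306582 (plus strand, AGK2), chr3:10231568-10231640 (minus, SMR7), chr5:442231-442303 (minus, SMR4), chr3:19325940-19326012 (plus, COM1) and chr4:16891909-16891981 (minus, AT4G09215), and all lie upstream of the annotated gene start.
AGK2: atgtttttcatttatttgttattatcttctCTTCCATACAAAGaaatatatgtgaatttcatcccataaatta
SMR7: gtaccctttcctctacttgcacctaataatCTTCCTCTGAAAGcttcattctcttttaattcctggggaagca
SMR4: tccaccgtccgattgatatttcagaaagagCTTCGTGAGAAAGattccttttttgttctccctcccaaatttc
COM1: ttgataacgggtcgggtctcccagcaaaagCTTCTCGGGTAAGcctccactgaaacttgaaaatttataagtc
AT4G09215: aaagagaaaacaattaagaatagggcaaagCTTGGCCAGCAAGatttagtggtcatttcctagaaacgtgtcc
The motif begins 69 bases before the start of AGK2, 43 before SMR7, 86 before SMR4, 65 before COM1 and 104 before AT4G09215, and the whole stretch searched before and after the SMR7 start holds 2 sites, of which 1 is shown.

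Genes with and without the motif had nearly the same median difference of the responses. Of the rises of 2-fold or more, the 116 with the motif had a median difference of 0.09, with 72 larger in brl3-2, and the 361 without it had 0.09, with 236 larger. The median mean response was 2.53 with the motif and 1.80 without. A match describes the letters in the window and is not a measured binding site.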

How the data were processed

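The authors deposited raw read counts per gene, 1 column per library, with 2 sequencing runs described for each. Reads were aligned with HISAT2 2.1 and counted with featureCounts 1.6.2 on build TAIR10, with edgeR 3.34.1, Trimmomatic 0.38 and FastQC 0.11.2 also listed, per the submitters' processing notes. Settings, including strand and how runs were combined, are not stated there. The 1 unnamed row (at most 0.0039% of a library) was left out.

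The fit used edgeR 4.0.16 in R 4.3.3: filterByExpr (minimum count 10, minimum total 15), TMM scaling, a quasi-likelihood fit with 1 coefficient for each of the 4 groups over all 12 libraries, and Benjamini-Hochberg adjustment over 19437 genes. SEs are those of the fitted coefficients. Levels are CPM with TMM scaling, and intervals cover 95%. DESeq2 1.42.0 and limma 3.58.1 (voom) were alternatives. Scripts were tested on simulated data. Symbols and coordinates came from RefSeq's TAIR10.1, which matched 33011 identifiers.

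The members, 19 gene lists (196 entries, 184 tested) and alternatives were chosen with earlier results of these data known. Named genes were BRL3, 6 genes in each direction with the lowest unadjusted p where fewer were called, the 10 largest mean rises and 6 largest mean falls with at least 4 counts in every group, the 4 narrowest intervals among rises of 2 or more, and up to 3 members of each list (10 for DNA damage) with the lowest p. Other list members and ESM1 were named after their values were seen. For 1 gene counted in the DNA damage list, values are not reported here.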

Additional observations from a re-analysis of the deposited data

How the results depend on the processing

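In every alternative run 0 genes were called for the difference of the responses: RLE size factors, DESeq2, limma-voom, no low-count filter, only genes of 1 CPM and over, the replicate block, thinned deep WT libraries, both deep WT libraries left out, and each of the 12 libraries left out. With both deep WT libraries left out, 540 genes had an unadjusted p under 0.05, the correlation was 0.852, the median absolute difference 0.12, and the median excess of brl3-2 −0.0073 over rises and −0.12 over falls of 2-fold or more; the cause was not tested. With no low-count filter the correlation was 0.385, the median absolute difference 0.13 and the excess 0.26 over rises and 1.27 over falls, since genes with a few reads enter. With genes of 1 CPM and over the correlation was 0.929. Leaving out 1 library gave 185 to 884 genes at an unadjusted p under 0.05, correlations of 0.836 to 0.879, median absolute differences of 0.093 to 0.14, excesses of 0.020 to 0.19 over rises and −0.065 to 0.34 over falls, and 613 to 930 genes called in both, 66.5% to 93.3% of the WT list and 63.4% to 86.8% of the brl3-2 list. For 24 genes, those chosen by the lowest p-values or the narrowest intervals and 10 of the DNA damage genes, the difference kept its sign in these settings, except that the 1 CPM and thinned settings were not run for single genes; the other named genes were not recomputed. Same-numbered libraries did not deviate together in every pair of groups (correlations −0.32 to 0.59), so the numbers were not taken as pairs; the replicate block gave 0 called, 256 at an unadjusted p under 0.05, 868 called in both and a correlation of 0.896. Under 1 CPM depth limits the comparison, with 5.23% of intervals within 2-fold.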
